A study of Mus musculus with 6 samples.

Results

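The phagocyte NADPH oxidase genes examined here were 5 listed genes of that enzyme, Cybb, Cyba, Ncf1, Ncf4 and Rac2. They were listed by symbol, with no threshold on a measured value but with earlier results of these data known, and each matched 1 of the 55421 Ensembl genes in the count table. All 5 passed the filter on low counts, as did 14469 genes in all. Transcripts were measured by RNA-seq of CD11b+F4/80+ tumor-associated macrophages (TAMs) sorted on day 15 from tumors grown from implanted cells labelled M17, the MC17-51 fibrosarcoma line of the study's methods. The 3 Pdcd1f/f libraries came from mice whose Pdcd1 gene, which encodes the inhibitory receptor PD-1, is floxed but carries no Cre. The 3 Pdcd1f/fLysMcre libraries came from mice with the same floxed gene and Cre recombinase driven by the lysozyme (LysM) promoter, which is active in macrophages, monocytes and neutrophils. The mice were young adults, and the labels name no treatment. The number of mice behind each library was not given in the sources used here, so the p-values measure only the spread between these libraries.

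The phagocyte NADPH oxidase, or NOX2, moves electrons from NADPH across a membrane onto oxygen and so makes superoxide, the source of the respiratory burst by which macrophages and neutrophils kill microbes. Its catalytic core is flavocytochrome b558, a heterodimer of gp91phox (Cybb) and p22phox (Cyba). In resting cells the organizer p47phox (Ncf1) and p40phox (Ncf4) wait in the cytosol, and on stimulation they move to the membrane together with the GTP-bound small GTPase Rac2. Loss of gp91phox, p22phox, p47phox or p40phox causes chronic granulomatous disease. In tumors, the superoxide that myeloid cells release is one of the products that can restrain T cells.

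The deposited reads supported these genes well. The libraries held 41833823 to 51417209 counts, and the members lay between the 85.2 and 95.6 percentiles of the genes tested by counts scaled to library size. Of the genes tested, 786 (5.43%) differed between the genotypes at a Benjamini-Hochberg adjusted p under 0.05 in the quasi-likelihood test of edgeR. Of these, 350 (2.42%) were higher with Cre and 436 (3.01%) were lower. The libraries of the genotypes did not overlap for 27.2% of the genes tested. Lyz2, the lysozyme gene into which this Cre is inserted, fell by 8.99 on the log2 scale (adjusted p = 2.4e-12 in the same edgeR test), so the labels of Cre held in all 6 libraries. Pdcd1 had 7 to 16 counts in every library of both genotypes, too few to check its deletion. The deletion and the inserted Cre allele came together, and their parts in any difference cannot be told apart. Pdcd1f/f replicate 1 and Pdcd1f/fLysMcre replicate 2 stood apart from the other libraries. In these libraries the deviation of a gene from its genotype mean fell with the GC content of its transcript (Spearman's rho of -0.800 and -0.752 across 8813 genes, which are not independent replicates), while rho was 0.218 to 0.772 in the other 4. Deviations within a genotype sum to 0, so a fall in 1 library brings a rise in the others. Chi-square per gene between libraries was 25.1 and 43.5 for Pdcd1f/f replicate 1 against 5.55 between the other 2 of its genotype, and 20.3 and 27.3 for Pdcd1f/fLysMcre replicate 2 against 13.8, so the latter stood apart less. Results for the members are therefore given as fitted, with each library's GC and length trend removed as an offset, and without these 2 libraries.

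The promoters of 3 members were in the RefSeq table for GRCm38.p6 and are shown because the interferon regulatory factors described further on bind motifs of this kind. Each runs from 250 bases before the RefSeq start site to 50 after it, 5′ to 3′ on the minus strand, and lies at chrX:9469275-9469574 for Cybb, chr8:122432891-122433190 for Cyba and chr5:134229576-134229875 for Ncf1. Capitals mark matches, searched on both strands, to a composite of the PU.1 and IRF half-sites (GGAA, any 2 bases, GAAA) or to a pair of IRF half-sites (GAAA, any 2 bases, GAAA).
Cybb: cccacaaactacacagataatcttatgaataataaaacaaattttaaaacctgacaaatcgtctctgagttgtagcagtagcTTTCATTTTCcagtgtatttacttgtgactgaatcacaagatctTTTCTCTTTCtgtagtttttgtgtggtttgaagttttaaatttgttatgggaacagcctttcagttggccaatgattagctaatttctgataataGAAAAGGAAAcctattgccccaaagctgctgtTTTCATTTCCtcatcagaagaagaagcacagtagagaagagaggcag
Cyba: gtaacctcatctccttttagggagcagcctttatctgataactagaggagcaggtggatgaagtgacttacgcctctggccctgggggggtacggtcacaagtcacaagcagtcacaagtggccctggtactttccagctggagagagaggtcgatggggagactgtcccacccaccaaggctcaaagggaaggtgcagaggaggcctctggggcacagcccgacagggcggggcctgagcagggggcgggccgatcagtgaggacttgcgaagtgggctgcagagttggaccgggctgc
Ncf1: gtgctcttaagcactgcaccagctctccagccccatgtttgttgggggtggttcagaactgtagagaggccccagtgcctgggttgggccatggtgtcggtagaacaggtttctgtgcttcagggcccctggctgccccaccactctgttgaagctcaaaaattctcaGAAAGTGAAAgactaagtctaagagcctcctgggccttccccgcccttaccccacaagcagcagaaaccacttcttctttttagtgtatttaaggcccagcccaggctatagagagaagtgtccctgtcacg
In the Cybb window the composite motif read on the opposite strand as TTTCATTTCC, at 4 to 13 bases after the start site. The paired IRF motif occurred 3 times in it, at -168 to -159, at -124 to -115 and at -29 to -20. The Ncf1 window held 1 paired motif, at -82 to -73, and the Cyba window held neither. Of 32851 promoter windows of the same length, 2.72% held the composite and 3.44% the paired motif, so both are uncommon. The longer PU.1 motif searched, GAGGAAG, carried by 13.6% of windows, was in none of the 3 as a whole. The Cybb window holds it without its last base, as GAGGAA on the opposite strand, overlapping the composite match. These are matches of letters and not bound sites. The RefSeq start of Cybb lies inside the longer gene model of the GENCODE annotation, so a different start would give a different window. Ncf4 and Rac2 have no promoter shown.

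The catalytic core was measured first. Cybb (ENSMUSG00000015340, GRCm38 chrX:9435252-9487771, minus strand) had normalized counts of 14071, 12938 and 13336 in Pdcd1f/f replicates 1 to 3 and of 11851, 12673 and 11193 in Pdcd1f/fLysMcre replicates 1 to 3. All 3 Pdcd1f/fLysMcre libraries were below all 3 Pdcd1f/f libraries, a separation in this direction shown by 13.1% of the genes tested. The means were 13448 ± 575 and 11906 ± 742 (SD, n = 3 each). The log2 fold change of -0.17 (SE 0.07) did not pass the edgeR test (adjusted p = 0.145).

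Cybb was the only member poorer in GC than the genes tested as a whole, at 42.4% of its longest transcript against a median of 49.2%. It ran high in both libraries that stood apart, by 0.07 and 0.09 on the log2 scale above their genotype means. With the GC and length offsets the adjusted levels averaged 13950 ± 497 without and 11461 ± 100 with Cre (SD, n = 3 each). The change was then -0.28 (SE 0.04, adjusted p = 7.5e-05 in edgeR), and this passed in all 6 fits that left out 1 library under these offsets, with values from -0.30 to -0.26. Without the 2 libraries it was -0.19 (adjusted p = 0.00662). Thus Cybb was lower in every setting, but it passed in only 3 of the 11 alternative settings other than leaving out 1 library. It was called with the offsets, which remove GC and length trends together, and without those libraries. In these 2 settings 18.3% and 26.2% of all genes were called. When 1 library was left out with no offsets, Cybb passed in 0 of 6 fits (adjusted p from 0.120 to 0.321 in edgeR). Cybb is X-linked, and the genotypes also differed in sex-linked transcripts, although the study states equal use of both sexes. Xist ranged from 17318 to 26511 normalized counts in Pdcd1f/f and from 8530 to 13137 in Pdcd1f/fLysMcre TAMs, and the sum of 4 Y-linked genes from 1545 to 1914 and from 6267 to 7233. Among 461 X-linked genes tested the median log2 fold change was 0.04, with 5 called higher and 11 lower (3.47%). The sex-linked difference ran with the genotype. Its part in the Cybb value, or in any other difference between the genotypes, cannot be told apart from that of the genotype.

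Cyba (ENSMUSG00000006519, chr8:122424776-122432930, minus strand) encodes p22phox, the partner that stabilizes gp91phox and docks the organizer. It had 12331, 15416 and 17143 normalized counts in Pdcd1f/f and 12510, 10092 and 13867 in Pdcd1f/fLysMcre libraries. The means were 14963 ± 2438 and 12157 ± 1912 (SD, n = 3 each). The groups overlapped, since Pdcd1f/f replicate 1 lay below 2 of the 3 Pdcd1f/fLysMcre libraries. The log2 fold change of -0.30 (SE 0.13) was close to that of Ncf1 but did not pass the edgeR test (adjusted p = 0.199).

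Cyba had the highest GC content among the members, 59.3%, and the largest spread, with coefficients of variation of 16.3% and 15.7%. The lowest value in each genotype came from a library that stood apart, by -0.27 and -0.26 on the log2 scale from the genotype mean. With the offsets the change shrank to -0.10 (SE 0.06, adjusted p = 0.254 in edgeR). Without both of these libraries it was -0.31 (adjusted p = 0.00109), and without Pdcd1f/f replicate 1 alone it was -0.43 (adjusted p = 0.0136). The direction of Cyba was thus the same in each setting, and its size and call were not.

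**Figure D1:**
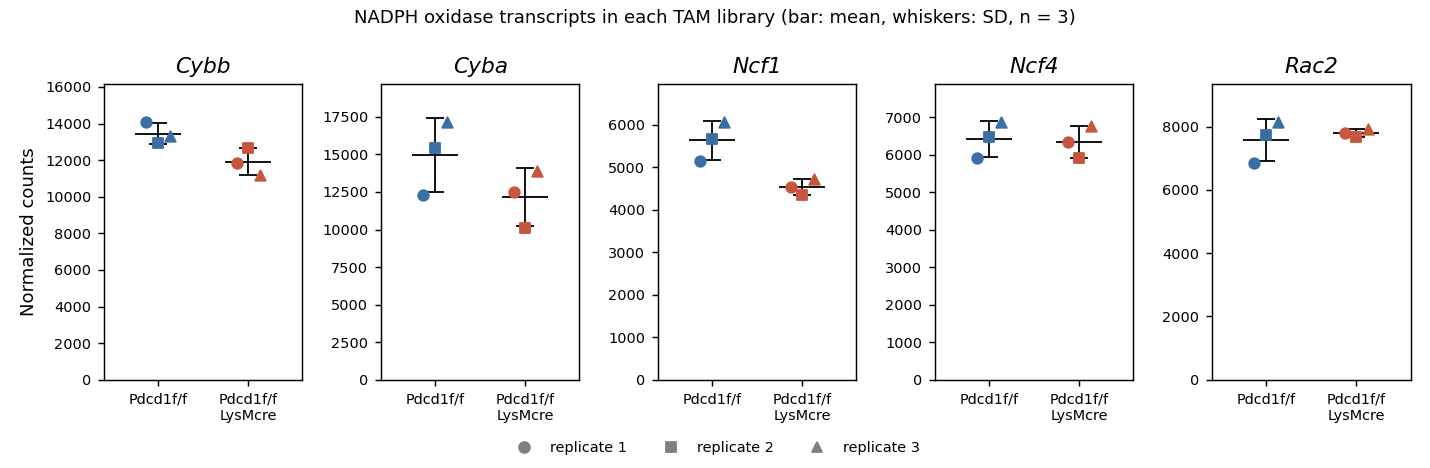
Normalized counts of each member (y axis, from 0) in the 3 Pdcd1f/f (blue) and 3 Pdcd1f/fLysMcre (red) TAM libraries, where symbols give the replicate, horizontal bars the mean and whiskers the SD. Ncf1 and Cybb separate without overlap, with Ncf1 falling from 5632 to 4535 on average, while Cyba, Ncf4 and Rac2 overlap.

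**Figure D2:**
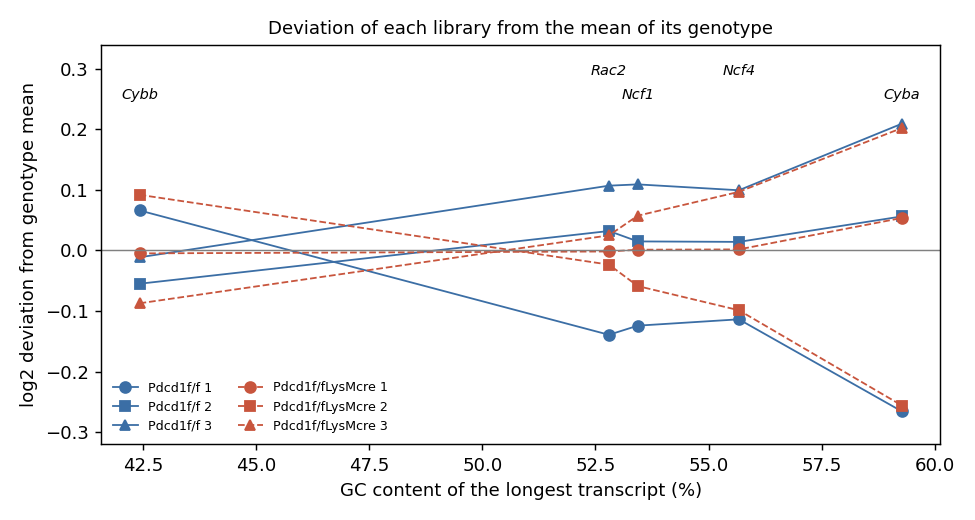
Deviation of each library from its genotype mean on the log2 scale (y axis) against the GC content of each member's longest transcript (x axis, %), with 1 line per library (Pdcd1f/f solid, Pdcd1f/fLysMcre dashed). Pdcd1f/f replicate 1 and Pdcd1f/fLysMcre replicate 2 slope downward, from 0.07 and 0.09 at Cybb to -0.27 and -0.26 at Cyba.

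Of the cytosolic subunits, Ncf1 was the 1 member of 5 called in the comparison, beside 5.43% of all genes called in either direction and 3.01% called lower. Ncf1 (ENSMUSG00000015950, chr5:134220053-134229625, minus strand) encodes the organizer p47phox, whose phosphorylation starts assembly. Its normalized counts were 5156, 5678 and 6061 in Pdcd1f/f and 4536, 4351 and 4717 in Pdcd1f/fLysMcre TAMs. Every Pdcd1f/fLysMcre library was below every Pdcd1f/f library. Its mean fell from 5632 ± 454 to 4535 ± 183 (SD, n = 3 each), or to 0.806 of the Pdcd1f/f level in the fit. That is -0.31 (SE 0.07) on the log2 scale, with an adjusted p = 0.0365 in edgeR.

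The Ncf1 call held with the offsets (-0.23, SE 0.04, adjusted p = 6.7e-04 in edgeR) and without both libraries that stood apart (-0.35, adjusted p = 1.7e-04), and at the 0.05 threshold in all 11 settings other than leaving out 1 library, these 2 among them. When 1 library at a time was left out with no offsets, the change stayed between -0.38 and -0.26. The call then passed only without Pdcd1f/f replicate 1 (adjusted p = 0.00236). It was lost without Pdcd1f/f replicate 2 (0.182) or 3 (0.150) and without Pdcd1f/fLysMcre replicate 1 (0.151), 2 (0.122) or 3 (0.0569), all adjusted p from edgeR. With the offsets it passed in each of the 6 such fits, with values from -0.25 to -0.21. Gtf2ird2 overlaps one end of Ncf1 on the opposite strand. It had 232 to 268 counts, against 4569 to 5560 for Ncf1, and whether strand was used in counting is not stated.

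Ncf4 (ENSMUSG00000071715, chr15:78244801-78262580, plus strand) encodes p40phox, which binds a phosphoinositide of the phagosome membrane. Its normalized counts were 5919, 6468 and 6862 in Pdcd1f/f and 6328, 5902 and 6759 in the Pdcd1f/fLysMcre libraries, with means of 6416 ± 473 and 6329 ± 428 (SD, n = 3 each). The groups overlapped over nearly their whole range. The log2 fold change was -0.017 (SE 0.08, adjusted p = 0.910 in edgeR).

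Rac2 (ENSMUSG00000033220, chr15:78559167-78572783, minus strand), the GTPase largely restricted to blood cells, had 6863, 7729 and 8141 normalized counts in Pdcd1f/f and 7790, 7673 and 7935 in Pdcd1f/fLysMcre TAMs. The means were 7578 ± 652 and 7799 ± 131 (SD, n = 3 each), and the groups overlapped. The log2 fold change was 0.044 (SE 0.07, adjusted p = 0.749 in edgeR). With the offsets both genes had values above 0, of 0.11 (SE 0.04, adjusted p = 0.0563) for Ncf4 and 0.12 (SE 0.04, adjusted p = 0.0605) for Rac2 in edgeR. The adjusted levels then separated, at 6129 ± 116 against 6605 ± 95.7 for Ncf4 and 7384 ± 300 against 7987 ± 112 for Rac2 (SD, n = 3 each). Neither passed the threshold with all libraries, and Ncf4 passed in 1 of 6 fits with offsets that left out a library, the fit without Pdcd1f/f replicate 1 (0.11, adjusted p = 0.0475). Without both libraries that stood apart, the fold changes were -0.030 for Ncf4 and -0.016 for Rac2, so no direction could be given for either.

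**Figure D3:**
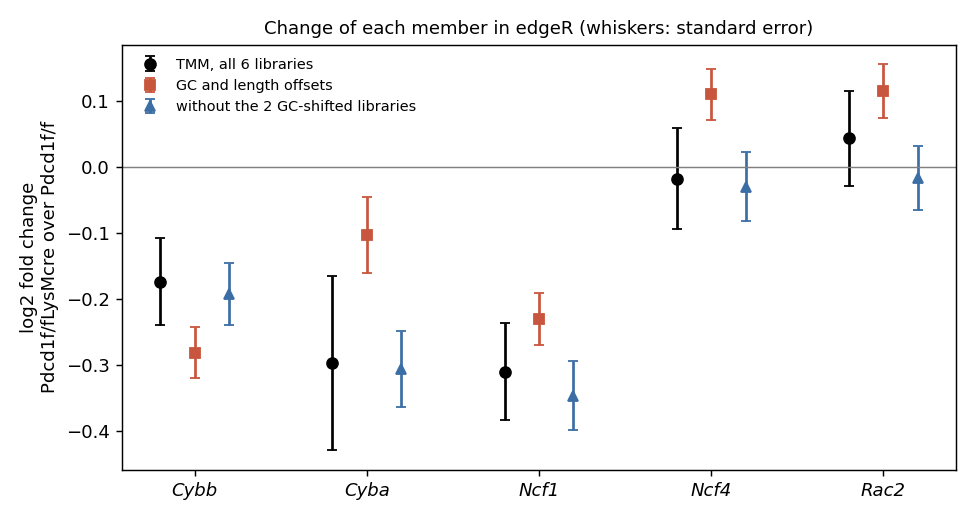
Log2 fold change of each member, Pdcd1f/fLysMcre over Pdcd1f/f (y axis), from edgeR with all 6 libraries (black), with GC and length offsets (red) and without the 2 libraries that stood apart (blue), where whiskers are standard errors. Cybb, Cyba and Ncf1 are below 0 in all 3 settings, from -0.35 to -0.10, whereas Ncf4 and Rac2 lie on both sides of 0.

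Ratios between members within a library do not depend on how libraries are scaled, and they show whether the subunits moved by the same amount. The log2 ratio of Ncf1 to Ncf4 was -0.20, -0.19 and -0.18 in replicates 1 to 3 of Pdcd1f/f, against -0.48, -0.44 and -0.52 in those of Pdcd1f/fLysMcre. The spread within a genotype (SD 0.01 and 0.04) was small beside the difference of -0.29. These genes are close in GC content, 53.4% and 55.7%, and the libraries that stood apart lay closer to their own genotype than to the other here. The log2 ratio of Ncf1 to Rac2 likewise averaged -0.43 ± 0.02 without and -0.78 ± 0.03 with Cre (SD, n = 3 each), which differ by -0.36. With the offsets the differences were -0.34 and -0.35, and leaving out any 1 library kept them from -0.31 to -0.27 and from -0.37 to -0.34.

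Without the offsets, 4 of the 10 pairs separated without overlap, all of them Ncf1 or Cyba over Ncf4 or Rac2. These pairs reuse the same 4 genes and are not separate results. Single genes separated in 27.2% of those tested, and the share among gene pairs at large was not computed, with or without the offsets. Cyba over Ncf4 differed by -0.28 and Cyba over Rac2 by -0.34. Each of the 4 had p = 0.1 in the two-sided exact permutation test, which is the smallest that 3 libraries against 3 can give, and 0.25 after Benjamini-Hochberg adjustment over the 10 pairs. None could therefore pass a threshold of 0.05. The remaining pairs overlapped there, with exact p from 0.2 to 0.9. Ncf4 over Rac2 was among them, at -0.24 ± 0.02 and -0.30 ± 0.07 (SD, n = 3 each). Cybb over Ncf1 was also among them, at 1.26 ± 0.17 and 1.39 ± 0.15 (SD, n = 3 each). The ratios of Cybb, the member of lowest GC content, changed most with the offsets, and all 4 then separated without overlap (exact p = 0.1 each). Cybb over Ncf4 differed by -0.16 without and -0.39 with the offsets, and Cybb over Rac2 by -0.22 and -0.40. Cybb over Cyba turned from 0.12 to -0.18 and Cybb over Ncf1 from 0.13 to -0.051. With the offsets Cyba over Ncf4 differed by -0.21 and Cyba over Rac2 by -0.22.

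**Figure D4:**
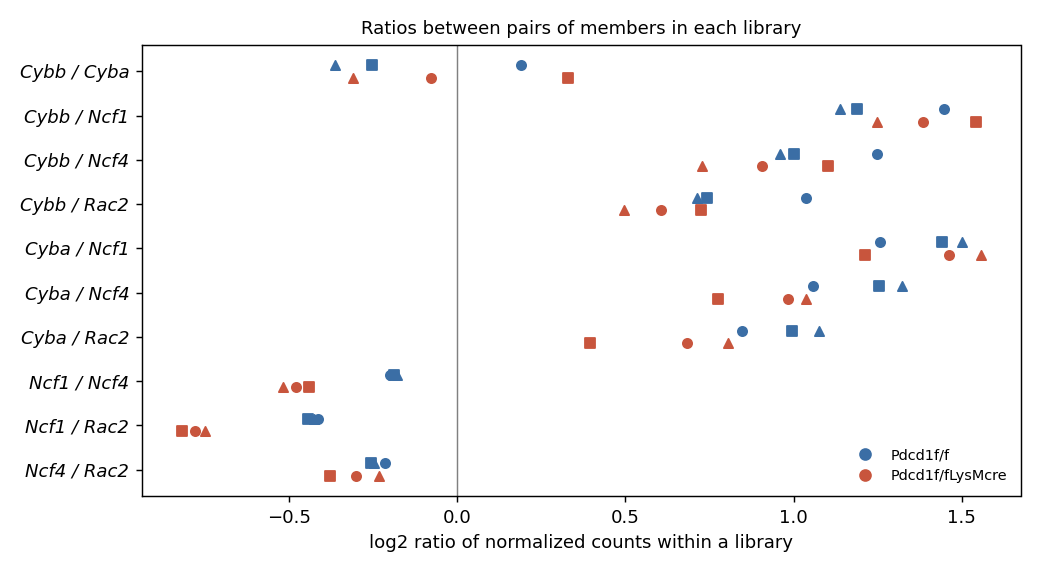
Log2 ratio of normalized counts between 2 members within each library (x axis) for the 10 pairs (y axis), Pdcd1f/f in blue and Pdcd1f/fLysMcre in red, with circles, squares and triangles for replicates 1, 2 and 3. Ncf1 over Ncf4 and Ncf1 over Rac2 form tight, separate groups, centred on -0.19 and -0.48 for the former and on -0.43 and -0.78 for the latter.

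Compared per length of the summed exons, Cyba had by far the highest level. The RPKM, which divides reads by exon length and library size, were 305 ± 49.8 for Cyba, 67.3 ± 4.98 for Ncf4, 51.7 ± 4.48 for Rac2, 49.0 ± 1.95 for Cybb and 32.6 ± 2.63 for Ncf1 in Pdcd1f/f TAMs (SD, n = 3). In Pdcd1f/fLysMcre TAMs they were 248 ± 39.2, 66.5 ± 4.54, 53.3 ± 0.93, 43.5 ± 2.68 and 26.3 ± 1.07 in the same order. In every library Cyba ranked first, Ncf4 second and Ncf1 last, while Rac2 and Cybb exchanged ranks and did not differ beyond their spread in Pdcd1f/f TAMs. With the length of the longest transcript in place of the exons, the Pdcd1f/f levels were 426 for Cyba, 92.8 for Ncf4, 59.9 for Cybb, 52.8 for Rac2 and 41.4 for Ncf1, so the middle of the order depends on the gene model.

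Within genotypes the members other than Cybb rose and fell together from library to library. Pearson's r of their deviations was 0.84 to 0.99 over the 6 libraries, which share a scaling and the GC trend. Cybb ran opposite to each of them, with r from -0.90 to -0.61. The genes most like each member across the 6 libraries, genotype difference included, were Dtx4 (r = 0.993), Dram2 and Tlr3 for Cybb and Ncaph2, Hmg20b and Notch4 for Cyba. For Ncf1 they were Rxra (r = 0.999), C1qc (r = 0.998) and Pald1, for Ncf4 Src, Eefsec and Mov10, and for Rac2 Surf4, P4hb and Rpa1. With 6 points a high r is weak evidence of likeness. Of 8429 genes compared, 60 (0.71%), 761 (9.03%), 397 (4.71%), 270 (3.20%) and 28 (0.33%) had r above 0.95 with Cybb, Cyba, Ncf1, Ncf4 and Rac2 in turn.

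Ncf4 and Rac2 lie on the same chromosome, 297 kb apart. Among the genes between them are Csf2rb, a receptor chain for GM-CSF and related cytokines that prime the oxidase, and its relative Csf2rb2. Csf2rb2 had a log2 fold change of -0.11 (adjusted p = 0.323 in edgeR) and Csf2rb of -0.07 (adjusted p = 0.564). No tested gene between Ncf4 and Rac2 passed. The largest values there were those of Kctd17 at -0.70 (adjusted p = 0.0723), C1qtnf6 at -0.36 (adjusted p = 0.213) and Mpst at -0.34 (adjusted p = 0.166). Of the nearest tested genes on both sides of each member only Rpgr passed, beside 5.43% of all genes called. Rpgr lies beyond Cybb with Dynlt3 between them. Its log2 fold change was 0.52 (adjusted p = 0.0468 in edgeR), opposite to that of Cybb, and that of Dynlt3 was 0.03 (adjusted p = 0.867).

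Beyond the members, 96 genes of the pathway were listed by role, and 86 could be tested. In edgeR, 3 were called higher and 6 lower in Pdcd1f/fLysMcre TAMs, 10.5% against 5.43% of all genes, with a median log2 fold change of -0.05 against -0.0026. The lists were drawn up with earlier results of these data known, and no set test was made.

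Of 22 tested genes for assembly and activation, 1 was called. The count depended on the setting, with 7 in DESeq2 (3 higher), 6 with the offsets (2 higher), 10 without Pdcd1f/f replicate 1 and 0 without any other single library, where 11.1%, 18.3%, 21.6% and 1.51% to 3.56% of all genes were called. Cybc1, the chaperone in the endoplasmic reticulum on which gp91phox depends, had 3597, 3804 and 3856 normalized counts in Pdcd1f/f and 3084, 3136 and 3195 in Pdcd1f/fLysMcre TAMs. The groups did not overlap. Its mean fell from 3753 ± 137 to 3138 ± 55.4 (SD, n = 3 each), a change of -0.26 on the log2 scale (SE 0.06, adjusted p = 0.0401 in edgeR). With the offsets it was -0.20 (adjusted p = 0.00241). In single-library omissions with no offsets it passed in 1 of 6 fits, with adjusted p up to 0.214, and with offsets in 6 of 6. Rac1, the widely expressed relative of Rac2, had a log2 fold change of 0.10 (adjusted p = 0.329). The median of the list was -0.02.

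Among 7 Rac exchange factors, which load Rac with GTP, Tiam1 was called higher, rising from 3119 ± 102 to 3962 ± 95.3 normalized counts (SD, n = 3 each). The change was 0.35 on the log2 scale (SE 0.06, adjusted p = 0.00961 in edgeR), and it passed in 4 of 6 single-library omissions (adjusted p up to 0.0782). The list held 2 calls in DESeq2 and with the offsets (Tiam1 and Dock5), 5 without Pdcd1f/f replicate 1 (where 21.6% of all genes were called, against 11.1% in DESeq2 and 18.3% with the offsets), and 0 without Pdcd1f/f replicate 2 or Pdcd1f/fLysMcre replicate 1. Vav1, the main exchange factor of hematopoietic cells downstream of Fc receptors, was at -0.19 (adjusted p = 0.165). Of the 6 genes that restrain Rac or the oxidase, none passed in edgeR with all libraries and no offsets (1 had an unadjusted p under 0.05), and DESeq2 called 1, Arhgap25, lower. In edgeR 2 were called without Pdcd1f/f replicate 1, and 3 were called higher and 1 lower with the offsets, a setting that called 18.3% of all genes. Nrros, which promotes degradation of gp91phox, was at -0.18 (adjusted p = 0.257).

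Other NADPH oxidases were nearly silent. Of 9 genes, Nox1, Noxo1 and Duoxa1 were tested, at 17 to 60 counts per library, and none passed. Nox3, Nox4 and Duox1 had at most 4 counts in any library, and Duox2, Noxa1 and Duoxa2 had 0 in all 6. Of 13 tested genes that remove superoxide and peroxide, Txnrd1, the cytosolic thioredoxin reductase, was called higher at 0.33 (SE 0.06, adjusted p = 0.00801 in edgeR), with means of 16230 ± 264 and 20327 ± 279 (SD, n = 3 each). Its call held in 4 of 6 single-library omissions. The list held 2 calls in DESeq2 (1 lower), 4 with the offsets (2 lower) and 0 to 5 when a library was left out (5 without Pdcd1f/f replicate 1, 0 without Pdcd1f/f replicate 2 or Pdcd1f/fLysMcre replicate 1). Over all genes 11.1%, 18.3% and 21.6% were called in DESeq2, with the offsets and without Pdcd1f/f replicate 1, against 5.43% as fitted. Gpx1, a glutathione peroxidase, was at -0.32 and just missed the threshold (adjusted p = 0.0514 in edgeR), and it passed in 10 of 11 settings that kept all libraries or left out both that stood apart, but in 1 of 6 single-library omissions without offsets (adjusted p up to 0.240). The superoxide dismutases Sod1 and Sod2 were at 0.06 (adjusted p = 0.649) and 0.13 (adjusted p = 0.190). In edgeR with all libraries and no offsets none of the 7 genes that supply NADPH passed (0 had an unadjusted p under 0.05), nor did any in DESeq2, while 1 passed without Pdcd1f/f replicate 1 and with the offsets Idh1 and Mthfd1 did, 1 in each direction. G6pdx, the first enzyme of the pentose phosphate pathway, was at 0.0011 (adjusted p = 0.994 in edgeR).

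Among 12 tested transcription factors known for the oxidase genes, 2 were called, both lower. Over all genes 5.43% were called in that fit, 11.1% in DESeq2, 18.3% with the offsets and 21.6% without Pdcd1f/f replicate 1. DESeq2 called 2 higher and 3 lower, and the offsets 2 higher and 2 lower. The count was 4 without Pdcd1f/f replicate 1, 1 without Pdcd1f/fLysMcre replicate 3 and 0 without any other single library. Irf1, a mediator of the interferon-γ response, had 2600, 2817 and 3064 normalized counts in Pdcd1f/f and 2172, 2002 and 2426 in Pdcd1f/fLysMcre TAMs, without overlap. Its log2 fold change was -0.36 (SE 0.09, adjusted p = 0.0446 in edgeR) and -0.29 with the offsets (adjusted p = 0.00101). Without offsets this passed in 2 of 6 single-library omissions (adjusted p up to 0.185). Cebpa, a regulator of myeloid differentiation, was at -0.35 (SE 0.08, adjusted p = 0.0380 in edgeR). With the offsets it shrank to -0.13 (adjusted p = 0.166), and its call was lost. The call was also lost in 5 of 6 single-library omissions without offsets (adjusted p up to 0.190). Across these 6 fits, however, the change stayed between -0.44 and -0.29.

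Irf8, which with PU.1 drives Cybb in macrophages, had 3818, 4412 and 4530 normalized counts in Pdcd1f/f and 3368, 3384 and 3605 in Pdcd1f/fLysMcre TAMs. The groups did not overlap, but the log2 fold change of -0.30 (SE 0.08) narrowly missed the threshold (adjusted p = 0.0519 in edgeR) and passed with the offsets at -0.26 (adjusted p = 0.00159). Spi1, which encodes PU.1, was at -0.13 (adjusted p = 0.527) and overlapped. It was at 0.047 with the offsets (adjusted p = 0.464) and passed at -0.16 without both libraries that stood apart (adjusted p = 0.0426), so its direction depended on the setting. Hoxa10 had 1 to 5 counts per library and was not tested. Cebpe had the largest value of the list, 1.16, at 16 to 50 counts, and did not pass (adjusted p = 0.0651), but it was among the genes called in DESeq2 and with the offsets.

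Of 16 tested receptors that trigger or prime the burst, 4 were called, with 5 in DESeq2, 6 with the offsets and 2 to 7 when a library was left out (7 without Pdcd1f/f replicate 1). Over all genes the share called was 5.43% as fitted, 11.1% in DESeq2, 18.3% with the offsets and 21.6% without Pdcd1f/f replicate 1. Fcgr3, a low-affinity activating Fc receptor for immune complexes, had 23928, 24501 and 24198 normalized counts in Pdcd1f/f and 17475, 17797 and 17691 in Pdcd1f/fLysMcre TAMs. The groups were far apart beside their spread, with a log2 fold change of -0.45 (SE 0.06, adjusted p = 0.00137 in edgeR). Fcgr4, another activating Fc receptor, fell from 5821 ± 205 to 4432 ± 85.7 (SD, n = 3 each), a change of -0.39 on the log2 scale (SE 0.06, adjusted p = 0.00488). Both calls held when any 1 library was left out. Ifngr1, the ligand-binding chain of the interferon-γ receptor, was lower by a log2 fold change of -0.28 (SE 0.06, adjusted p = 0.0254). Clec7a, which encodes the β-glucan receptor Dectin-1, was higher at 0.40 (SE 0.08, adjusted p = 0.0235), from 9253 ± 725 to 12155 ± 1207 (SD, n = 3 each). The calls of Ifngr1 and Clec7a each passed in 2 of 6 single-library omissions with no offsets and in 6 of 6 with them.

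**Figure D5:**
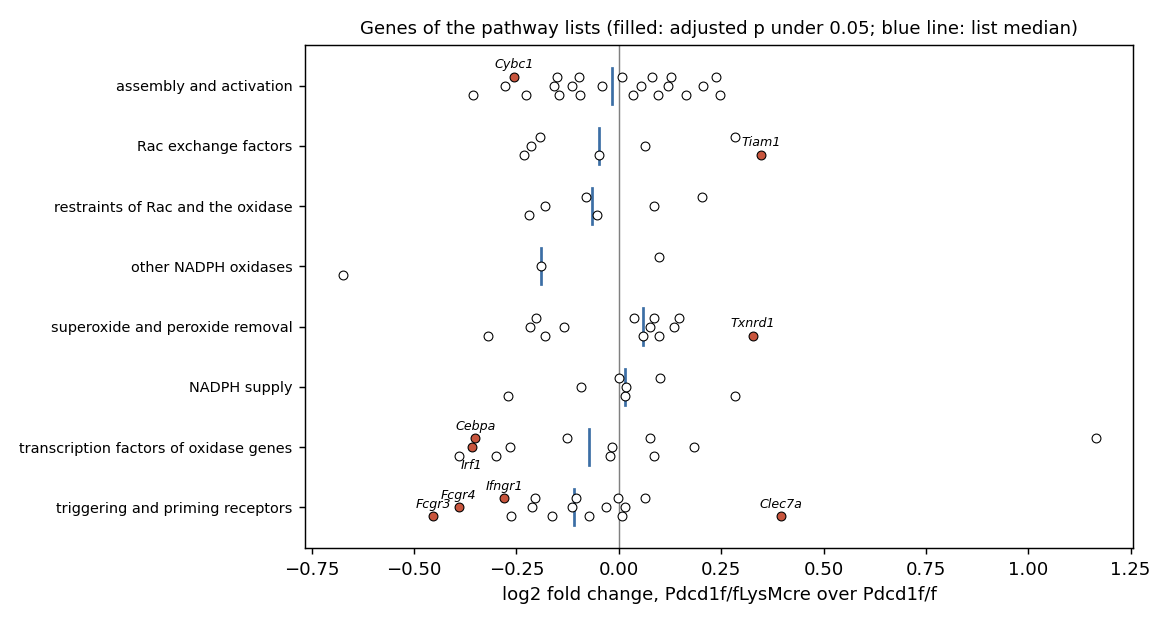
Log2 fold change, Pdcd1f/fLysMcre over Pdcd1f/f (x axis), of each tested gene in the 8 lists (y axis), where filled red points had an edgeR adjusted p under 0.05 and blue lines mark list medians. Of 86 genes 9 are filled, 6 of them below 0, and the list medians lie between -0.19 and 0.06.

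Markers of macrophages moved with these differences. Of 9 macrophage markers 6 were called lower (Adgre1, Csf1r, C1qa, C1qb, C1qc and Mertk), beside 3.01% of all genes. Without offsets Mertk passed in 6 of 6 single-library omissions, Adgre1 and C1qc in 4, C1qa and C1qb in 3 and Csf1r in 2, and with offsets each passed in 6 of 6. The summed normalized counts of the list ranged from 315593 to 376914 in Pdcd1f/f and from 254889 to 278389 in Pdcd1f/fLysMcre TAMs. In bulk samples, fewer cells of a type and less RNA per cell cannot be told apart. Neutrophils carry much of the oxidase of blood, and 8 of 14 neutrophil markers were tested. Csf3r and Mmp8 were called lower, and the summed level of the list, mostly from Mmp9, ranged from 162266 to 180543 and from 145492 to 164795. The other 6 tested did not pass, among them S100a8 at 0.23 (994 to 1632 counts) and S100a9 at 0.12 (499 to 680 counts). Of those not tested, Ly6g, Camp and Elane had at most 3 counts in any library, and Ltf had the most, with up to 21. The sort had gated on Ly6G- cells. None of the 4 monocyte markers passed, with sums of 23767 to 25532 and 22227 to 26208. Among markers of other cells, 1 of 5 tested for stroma, Col1a2 (53 to 139 counts), was called lower. So was 1 of 3 for endothelium, Pecam1 (694 to 1110 counts). The other tested stroma markers did not pass, with Col1a1 at -0.78, Pdgfrb at -0.42, Col3a1 at -0.07 (933 to 1269 counts) and Dcn at 0.03 (1308 to 1964 counts). Nor did Cdh5 at -0.009 and Kdr at 0.02 of endothelium. None was called of dendritic cells, eosinophils, T and NK cells or B cells. The part of these shifts in the values of Ncf1 and Cybb was not tested.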

How the data were processed

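RNA-seq was analysed from 6 libraries of sorted TAMs (live CD45+CD11b+F4/80+Ly6G-), 3 per genotype as labelled. The authors prepared stranded poly(A) libraries, trimmed paired-end reads with cutadapt 2.5, aligned them to GRCm38 with STAR 2.7.3a and deposited raw counts per Ensembl gene from featureCounts (Subread 1.6.2). Strand and multi-mapping settings were not given in the sources used here. A second table deposited by the authors holds a normalized signal for 16552 genes, that is counts divided by 1 DESeq2 (1.24.0) size factor per library (0.895 to 1.08). Those values are called normalized counts here.

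The raw counts were tested with edgeR 4.0.16 in R 4.3.3 (filterByExpr with a minimum count of 10 and a minimum total of 15, TMM, robust quasi-likelihood fit, two-sided), with Benjamini-Hochberg adjustment over 14469 genes and a threshold of 0.05. Standard errors came from the fold change and the F statistic. The offsets were loess fits per library on the GC content of the longest transcript and the log2 of the summed exon length (span 0.5). Positions, lengths and symbols came from the GENCODE M21 annotation of GRCm38. DESeq2 1.42.0 and limma 3.58.1 served as alternatives, and the calculations were tested on simulated data. With 3 libraries a group and 41833823 or more counts per library, the spread between libraries limits precision more than counting does. Named genes are the members and the 3 genes most like each member with a mean CPM of at least 10. From each pathway list they are genes past the threshold (at most 5 a list) with up to 2 others. Irf8, Spi1 and Hoxa10 are named in any case. The other NADPH oxidases, cell markers, genes that check labels and neighbours of the members were named outside this rule. Gpx1, Cebpe, Rpgr, Kctd17, C1qtnf6, Mpst, Arhgap25, Dock5, Idh1 and Mthfd1 were named after their values were seen. The members and lists were chosen with earlier results of these data known. Not every gene of the complex or of the marker lists is reported here.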

Additional observations from a re-analysis of the deposited data

How the results depend on the processing

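Every setting kept Ncf1, Cybb and Cyba lower in Pdcd1f/fLysMcre TAMs, while their size and which of them passed changed. Genes called, 786 as reported, numbered 1951 with no filter on low counts, 1599 in DESeq2 and 1725 with Storey q-values over the 16552 genes of the normalized table, 2652 with GC and length offsets, 3757 without both GC-shifted libraries and 283 at a threshold of 0.01. With the offsets 1470 of them were higher and 1182 lower, against 350 and 436. Members called, 1 as reported, numbered 2 with no filter, 2 with the offsets, 3 without both libraries and 0 at 0.01. The share of all genes called was 5.43% as reported and 7.32%, 18.3%, 26.2% and 1.96% in these settings. Cyba passed at -0.30 with no filter and at -0.31 without both libraries. Cybb passed at -0.28 with the offsets and -0.19 without both libraries. Ncf4 turned to 0.11 with the offsets and Rac2 to -0.016 without both libraries.

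The replicate numbers did not pair the libraries: deviations of same-numbered libraries correlated at -0.13, -0.50 and 0.73, with 1 of 3 numbers matching best. With replicate as a block 1027 genes (7.10%) were called, and Ncf1 was again the only member (adjusted p = 0.0252 in edgeR). The block with the offsets called 2711 genes (18.7%) and 2 members, Cybb at -0.28 and Ncf1 at -0.23. Ncf4 was at 0.11 and did not pass (adjusted p = 0.0665 in edgeR).

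Leaving out 1 library gave 222 to 3181 genes (1.51% to 21.6% of those tested) and 0 to 2 members, with Ncf1 from -0.38 to -0.26, Cybb from -0.22 to -0.14, Cyba from -0.43 to -0.18, Ncf4 from -0.081 to 0.031 and Rac2 from -0.032 to 0.10. The count was highest without Pdcd1f/f replicate 1 and lowest without Pdcd1f/fLysMcre replicate 1. Leaving out 1 library with the offsets, an alternative chosen after seeing the data, gave 3340, 1541 and 1790 genes without Pdcd1f/f replicates 1 to 3, 1965, 1988 and 2067 without those of Pdcd1f/fLysMcre, and 2 to 3 members. These gene counts were 10.4% to 22.6% of the genes tested. Cybb was then at -0.30, -0.29, -0.26, -0.29, -0.28 and -0.27 in the same order, with Ncf1 from -0.25 to -0.21, Cyba from -0.15 to -0.04, Ncf4 from 0.10 to 0.12 and Rac2 from 0.08 to 0.14. The cause of these changes was not tested.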
